A study of Macaca mulatta with 19 samples.

Results

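The late steps of cholesterol synthesis and their transcriptional control were followed through 9 genes in luteinized granulosa cells of rhesus macaques. The genes were chosen by name: CYP51A1, TM7SF2, MSMO1, NSDHL, EBP, SC5D and DHCR7 encode enzymes that turn lanosterol into cholesterol, SREBF2 encodes the transcription factor SREBP2, and INSIG1 encodes its retention factor. They are 9 of the 32386 genes in the count table, and all 9 passed the filter on low counts, with between 749 reads (EBP in WSD+C 4) and 49717 reads (DHCR7 in Chow+T 1) per gene and library. The series asks how long exposure to raised androgen and to an obesogenic diet affects the granulosa cells and the oocyte of the follicle about to ovulate.

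Females received implants and diets from near the onset of menarche for about 3.5 years, with 10 animals enrolled per treatment. All of them carried an implant, of cholesterol (C) or of testosterone (T, which gave levels 4 to 5 fold above C), and ate standard chow or a Western-style diet (WSD). The control group, Chow+C, had 4 libraries, as had Chow+T, while 5 came from WSD+C and 6 from WSD+T, and each of the 19 libraries bears its own number in the labels. The cells were aspirated in a controlled ovulation cycle from the follicle that the animal had itself selected, with no sort of the cells named. The labels also give the oocyte of that follicle: MI (metaphase I) in 8 libraries, MII (metaphase II, the mature stage) in 4, degenerating in 6 and GV (germinal vesicle, the immature stage) in 1. The MI oocytes came from Chow+C (3), WSD+C (3) and WSD+T (2), the MII oocytes from Chow+T (2), Chow+C (1) and WSD+T (1), the degenerating ones from WSD+T (3), WSD+C (2) and Chow+T (1), and the GV oocyte from Chow+T. Libraries are named by group and replicate number, so that WSD+C 4 is replicate 4 of WSD+C.

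As background, cells make cholesterol from lanosterol by removing methyl groups, shifting a bond of the sterol ring and reducing the last bonds. When sterols are scarce in the endoplasmic reticulum, the escort protein SCAP carries SREBP2 to the Golgi, where proteases release its active part, which switches on the genes of the pathway, INSIG1 among them. INSIG1 protein holds SCAP back when sterols are plentiful. Luteinizing granulosa cells take up and make cholesterol because it is the substrate for progesterone.

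Gene counts per library ranged from 28832132 to 56385679, and levels below are in CPM, read counts divided by library size after TMM scaling (the trimmed mean of M-values). STAR, CYP11A1, HSD3B2, CYP19A1 and NR5A2, which are genes of steroid synthesis, were among the 11 granulosa markers in the table. Of these 11 markers, 10 reached 1 CPM in all 19 libraries. The library WSD+C 4 lay far from the rest: its granulosa score, the mean log2 CPM of those markers, was 5.42 against 6.22 to 7.92 elsewhere, and its erythroid score was 9.28 against at most 3.10. It also had the highest smooth muscle (6.49), oocyte (5.11), surface epithelium (4.55) and theca and stroma (4.20) scores of all libraries. WSD+T 6 had the highest leukocyte score, 7.66, and 2725 CPM summed over 11 macrophage markers, where the median library had 18.3 CPM. In Chow+C 2, 49.1% of reads fell in genes, against 55.9% to 69.1% elsewhere.

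The 9 genes moved largely together between libraries, while no difference between treatment groups or oocyte classes passed the threshold. WSD+C 4 had the lowest level of 8 of the 9 genes, and INSIG1 was lowest in Chow+C 4. Chow+T 2 was second lowest for 6 of the genes, and Chow+C 2 for NSDHL and DHCR7. The SD of log2 CPM over the 19 libraries was widest for DHCR7, at 1.45 (0.908 without WSD+C 4), and narrowest for SREBF2, at 0.449 (0.231 without it). The median over all tested genes was 0.550, or 0.491 without that library. Without it, CYP51A1 (0.702), MSMO1 (0.727) and DHCR7 stayed well above the median gene. NSDHL, SC5D, INSIG1, EBP and TM7SF2 lay nearer to it, between 0.501 and 0.569, and SREBF2 lay below it. Treatment group accounted for between 5.00% (DHCR7) and 23.1% (INSIG1) of the variance of log2 CPM, where the median gene had 13.3%. The oocyte class accounted for 9.92% (SREBF2) to 27.8% (TM7SF2), where the median gene had 11.9%. In these bulk libraries, fewer granulosa cells and less RNA per granulosa cell cannot be told apart.

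**Figure D1:**
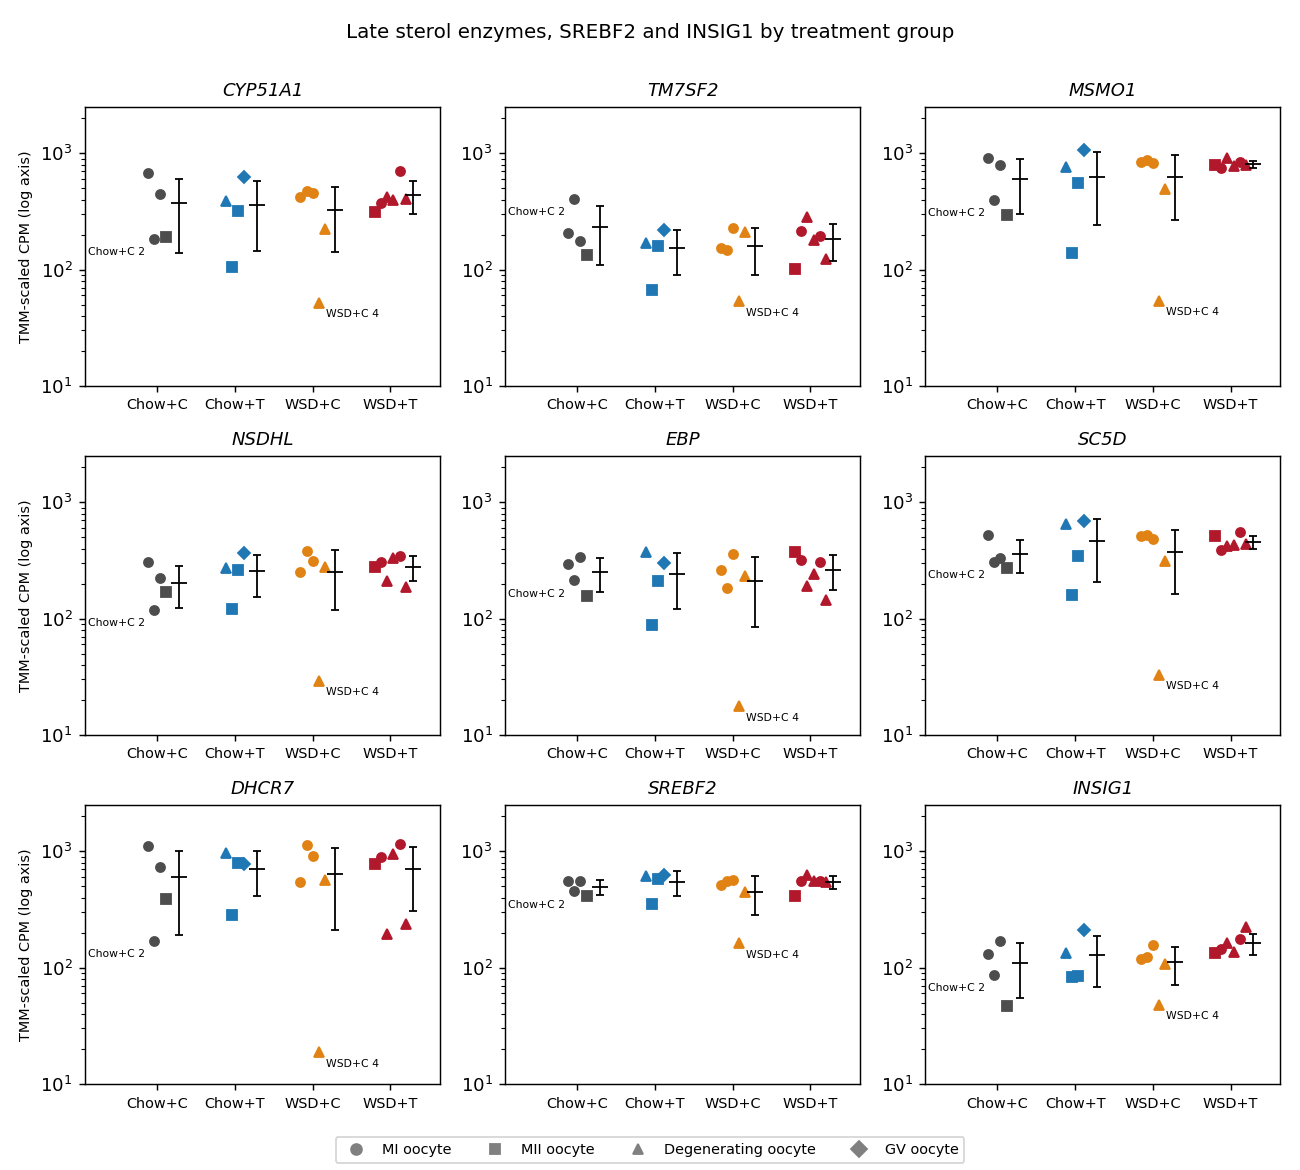
TMM-scaled CPM (log axis) of each of the 9 genes in the 19 libraries by treatment group; marker shape gives the oocyte class, and the bars beside the points give the mean and SD of each group. The groups overlap for every gene, and WSD+C 4 lies far below the other WSD+C libraries in all but INSIG1 and TM7SF2, where the gap is smaller.

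The first enzymes after lanosterol were CYP51A1, which removes a methyl group from lanosterol itself, and TM7SF2, a sterol reductase that shares its step with the lamin B receptor LBR. CYP51A1 (ENSMMUG00000038190) was at 672, 184, 443 and 191 CPM in Chow+C 1 to 4 and at 386, 106, 321 and 631 CPM in Chow+T 1 to 4. In WSD+C 1 to 5 it was at 425, 475, 459, 51.7 and 222 CPM, and in WSD+T it ranged from 312 to 707 CPM around a median of 400 CPM. The groups overlapped throughout: the lowest chow libraries sat below all 6 WSD+T libraries, but the highest chow libraries were near the top of the whole set. Group means ± SD were 372 ± 233 CPM in Chow+C (n = 4), 361 ± 216 in Chow+T (n = 4), 327 ± 184 in WSD+C (n = 5) and 436 ± 138 in WSD+T (n = 6).

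TM7SF2 (ENSMMUG00000018773) was at 206, 408, 175 and 134 CPM in Chow+C, at 168, 67.0, 161 and 221 CPM in Chow+T, and at 155, 147, 226, 53.3 and 211 CPM in WSD+C. In WSD+T it ranged from 102 to 281 CPM around a median of 187 CPM. The highest of all was Chow+C 2, the library with the smallest share of reads in genes, in which CYP51A1, MSMO1, NSDHL and DHCR7 were instead low. TM7SF2 overlaps VPS51 in the RefSeq annotation of the T2T-MMU8v2.0 assembly, and the libraries carry no strand, so reads of the 2 genes may not be separable. In the same annotation NSDHL, EBP and INSIG1 each overlap 1 long noncoding RNA gene and SREBF2 overlaps 2, so the same limit holds for them.

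MSMO1 and NSDHL act in succession to remove the methyl groups that CYP51A1 leaves on the ring. MSMO1 (ENSMMUG00000039955) was at 911, 395, 799 and 296 CPM in Chow+C, at 767, 138, 551 and 1062 CPM in Chow+T, and at 840, 883, 830, 53.6 and 490 CPM in WSD+C. All 6 WSD+T libraries lay between 753 and 907 CPM, with a median of 792 CPM. This was the tightest group of the gene: its SD was 54.7 CPM (n = 6), against 301 CPM in Chow+C (n = 4), 389 in Chow+T (n = 4) and 353 in WSD+C (n = 5). Neither leukocyte-rich WSD+T 6 nor the 2 other WSD+T libraries with a degenerating oocyte had low MSMO1. NSDHL (ENSMMUG00000013176) ranged from 118 CPM (Chow+C 2) to 383 CPM (WSD+C 2) outside WSD+C 4, in which it was at 29.1 CPM.

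EBP, the isomerase that shifts a ring bond, and SC5D, the desaturase after it, completed the middle of the pathway. EBP (ENSMMUG00000044056) ranged from 88.5 CPM in Chow+T 2 to 374 CPM in WSD+T 1 outside WSD+C 4, in which it was at 17.7 CPM. SC5D (ENSMMUG00000039289) ranged from 159 CPM in Chow+T 2 to 698 CPM in Chow+T 4, and was at 33.0 CPM in WSD+C 4. The highest and the second lowest SC5D library thus belonged to the same treatment group.

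DHCR7, the reductase that makes cholesterol from its last precursor, varied most. DHCR7 (ENSMMUG00000011976) was at 1115, 171, 733 and 392 CPM in Chow+C, at 975, 282, 796 and 780 CPM in Chow+T, and at 547, 1136, 919, 18.7 and 566 CPM in WSD+C. In WSD+T it ranged from 193 to 1151 CPM around a median of 840 CPM. The highest library was 61.5 times the lowest, and 6.74 times the lowest without WSD+C 4. Within WSD+T, WSD+T 3 and WSD+T 6 were low at 193 and 238 CPM, and the other 4 libraries lay at 784 CPM or above.

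SREBF2, the first of the control genes, varied least, and INSIG1 had a wider range. SREBF2 (ENSMMUG00000003357) was at 555, 453, 557 and 415 CPM in Chow+C, at 619, 356, 576 and 629 CPM in Chow+T, at 518, 553, 565, 161 and 452 CPM in WSD+C, and between 412 and 628 CPM in WSD+T with a median of 557 CPM. Without WSD+C 4 its highest library was 1.77 times its lowest. INSIG1 (ENSMMUG00000047977) was at 132, 86.6, 170 and 46.6 CPM in Chow+C, at 134, 83.4, 84.3 and 211 CPM in Chow+T, and at 118, 125, 157, 48.2 and 108 CPM in WSD+C. In WSD+T it ranged from 133 to 223 CPM around a median of 154 CPM. Each WSD+T library thus had at least 133 CPM of INSIG1, a level that 4 of the 13 libraries of the other groups passed. The SD of its log2 CPM was 0.620, or 0.545 without WSD+C 4, which was then above the SD of NSDHL (0.501) and of SC5D (0.510). The transcript of SREBF2 gives no measure of the processed, active SREBP2 protein.

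The treatment comparisons asked what testosterone, the diet or both did to these genes. None of the 9 genes passed an adjusted p of 0.05 in any of the 6 treatment comparisons by edgeR's quasi-likelihood test, none had an unadjusted p under 0.05, and DESeq2 called none of them. Over all 15019 tested genes, edgeR called 0% in each of these comparisons. The share of all genes with an unadjusted p under 0.05 was 7.18% for testosterone on chow, 5.08% for the diet without testosterone and 6.75% for both against control. It was 3.86% for testosterone on the Western-style diet, 4.97% for the diet under testosterone and 4.52% for the interaction. DESeq2 called 5, 0, 3, 0, 4 and 3 genes in the same order.

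INSIG1 had the smallest p of the 9 genes in the 3 comparisons that set WSD+T against another group. It averaged 163 ± 33.9 CPM (SD, n = 6) in WSD+T against 109 ± 53.9 CPM (n = 4) in Chow+C, a fitted log2 fold change of 0.58 (SE 0.359, 95% confidence interval -0.18 to 1.33, edgeR adjusted p = 0.720). Against WSD+C, at 111 ± 39.8 CPM (n = 5), the fitted log2 fold change was 0.55 (SE 0.334, interval -0.16 to 1.25, edgeR adjusted p = 0.999). Both intervals include 0. Without WSD+C 4 the latter value was 0.36, and without both WSD+C 4 and WSD+T 6 the values were 0.46 and 0.24. The median summed level of the macrophage markers was also highest in WSD+T, where it ran from 10.4 to 2725 CPM (median 30.6), against 13.6 to 19.8 CPM (median 17.8) in Chow+C and 10.98 to 332 CPM (median 21.9) in WSD+C. With the leukocyte score in the fit INSIG1 had 0.73 and 0.70, and with the granulosa score 0.73 (edgeR unadjusted p = 0.0211) and 0.55. Testosterone on chow gave INSIG1 a fitted log2 fold change of 0.24, with an interval of -0.58 to 1.05, which turned to -0.11 without Chow+T 4, the GV library, and to -0.36 with MI and MII libraries alone.

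In testosterone on the Western-style diet, the fitted log2 fold changes of all 9 genes were above 0, from 0.14 (NSDHL and DHCR7) to 0.55 (INSIG1), with a median of 0.30 against -0.00 over all tested genes. These values rested on WSD+C 4: without it, the fitted log2 fold change was 0.14 for CYP51A1, 0.09 for MSMO1, 0.00 for SC5D, 0.03 for EBP, 0.06 for SREBF2 and 0.36 for INSIG1. TM7SF2 (-0.02), NSDHL (-0.15) and DHCR7 (-0.17) were then below 0. With the leukocyte score in the fit the values were larger instead, with a median of 0.94, from 0.50 for TM7SF2 to 1.07 for MSMO1, and EBP, at 0.96, had an edgeR unadjusted p of 0.0385.

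For testosterone on chow the median of the 9 genes was 0.14, with 6 above 0. Chow+T held no MI library, and with MI and MII libraries alone all 9 values were below 0, with a median of -0.49, among them CYP51A1 at -0.79 and MSMO1 at -0.78. The median was -0.11 without Chow+T 4 and -0.08 without Chow+C 2, with 4 above 0 in each, and -0.04 with the leukocyte score in the fit. For the diet without testosterone the median was 0.03, with 5 above 0, which became 0.22 with 8 above 0 without WSD+C 4 and -0.12 with 1 above 0 without Chow+C 2. With the leukocyte score it was -0.17, with 2 above 0. TM7SF2 had the lowest values in both comparisons, at -0.58 (SE 0.447) and -0.54 (SE 0.420), which became -0.16 and -0.12 without Chow+C 2.

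For both exposures against control the median was 0.23, with 8 of 9 above 0, and 0.09 without Chow+C 2, where CYP51A1 was at 0.00 and DHCR7 at -0.09. For the diet under testosterone it was 0.13, with 6 of 9 above 0, and -0.11 with 2 above 0 without Chow+T 2. For the interaction it was 0.31, with 6 of 9 above 0, and 0.03 with 5 above 0 without WSD+C 4, or -0.02 with 4 above 0 without Chow+T 2. With the leukocyte score in the fit, these 3 medians were 0.60, 0.58 and 0.98, with all 9 values above 0 in each, and the interaction of DHCR7 went from -0.09 to 0.98. The widest interval was that of DHCR7 in the interaction, from a log2 value of -2.33 to 2.14, and the narrowest were those of SREBF2. For SREBF2 the interval was -0.49 to 0.77 for testosterone on chow and -0.74 to 0.46 for the diet without testosterone. Comparisons that share a group of libraries are not independent of each other.

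**Figure D2:**
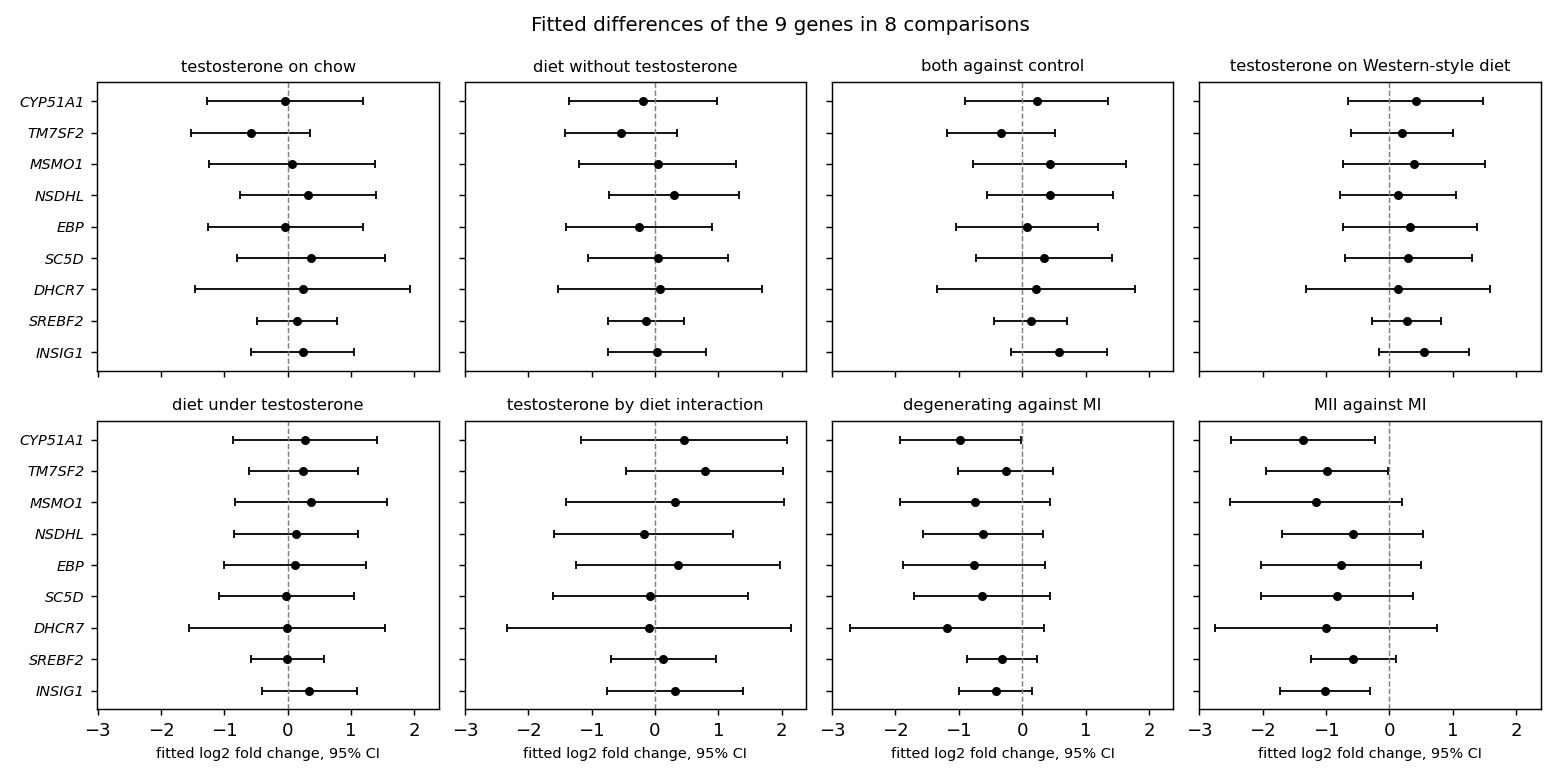
Fitted log2 fold changes (points) with 95% confidence intervals (lines) of the 9 genes in the 6 treatment comparisons and the 2 oocyte comparisons, from edgeR. All treatment intervals include 0, and the intervals of CYP51A1 in both oocyte comparisons and of TM7SF2 and INSIG1 in MII against MI do not.

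No gene of the wider pathway passed the threshold in a treatment comparison. Of 10 tested genes of the mevalonate and squalene steps, which supply lanosterol, edgeR called none in any treatment comparison. All 10 had fitted values above 0 in testosterone on the Western-style diet (median log2 fold change 0.29) and in the diet under testosterone (0.28), while 8 of 10 were below 0 in testosterone on chow (-0.13) and in the diet without testosterone (-0.15). None was called of the 11 tested genes of the SREBP machinery, the 7 of other SREBP2 targets or the 10 of granulosa steroid synthesis. Nor was any of the 7 LXR genes, which are those of the sterol receptor LXR itself (NR1H2 and NR1H3) and genes it switches on. SREBF1, which encodes the related factor SREBP1, had -0.92 (SE 0.395, edgeR unadjusted p = 0.0316, adjusted p = 0.830) for the diet without testosterone and an interaction of 1.32 (SE 0.553, unadjusted p = 0.029, adjusted p = 0.933). All 5 late sterol genes outside the 9 had values above 0 in testosterone on chow, in the diet without testosterone and in both against control, and none was called.

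The oocyte comparisons asked whether the granulosa cells differed with the oocyte of the same follicle, with the treatment group as a term in the fit. In MII against MI, the fitted log2 fold changes of all 9 genes were below 0, with a median of -0.98 against -0.01 over all tested genes, and none passed the adjusted threshold. The size depended on the fit: without the treatment term the median was -0.57 and INSIG1 was at -0.68. Leaving out Chow+T 1, which had a degenerating oocyte, gave a median of -0.64, and EBP went from -0.77 to -0.32. Chow+T held no MI library. Leaving out WSD+C 4, which also had a degenerating oocyte, gave a median of -0.79. With the granulosa score in the fit the median was -0.29, and all 9 stayed below 0 in each of these fits. INSIG1, CYP51A1 and TM7SF2 had an unadjusted p under 0.05. They were 3 of the 9 genes, where 1.7% of all 14976 tested genes were lower at that unadjusted p. The 9 genes varied together across libraries, with a median Pearson's r of 0.817 over their pairs. Their signs and p values, here and in the other comparisons, are therefore not separate observations. Over 25 alternative fits, INSIG1 kept a p under 0.05 in 24, CYP51A1 in 21 and TM7SF2 in 12. At the adjusted threshold edgeR called 0% of all genes, and 586 had an unadjusted p under 0.05 in either direction, while DESeq2 called 6 genes and none of the 9.

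INSIG1 was at 46.6, 83.4, 84.3 and 133 CPM in the MII libraries (Chow+C 4, Chow+T 2, Chow+T 3 and WSD+T 1) and from 86.6 to 175 CPM, with a median of 139 CPM, in the 8 MI libraries. All MII libraries but WSD+T 1 lay below every MI library, and WSD+T 1 lay among them. The fitted log2 fold change was -1.02 (SE 0.332, 95% confidence interval -1.73 to -0.31, edgeR unadjusted p = 0.00806, adjusted p = 0.9995). Within Chow+C the MII library had 46.6 CPM and the MI libraries 132, 86.6 and 170 CPM, and within WSD+T the MII library had 133 CPM and the MI libraries 146 and 175 CPM. Chow+T held no MI library and WSD+C no MII library, so only these 2 groups allow the comparison within a treatment.

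CYP51A1 was at 191, 106, 321 and 312 CPM in the MII libraries and from 184 to 707 CPM, with a median of 451 CPM, in the MI libraries. Every MII library lay below all MI libraries except Chow+C 2. The fitted log2 fold change was -1.37 (SE 0.531, interval -2.50 to -0.23, edgeR unadjusted p = 0.0215, adjusted p = 0.9995). TM7SF2 was at 134, 67.0, 161 and 102 CPM in the MII libraries and from 147 to 408 CPM in the MI libraries, with a fitted value of -0.98 (SE 0.449, edgeR unadjusted p = 0.0452, adjusted p = 0.9995). Without Chow+C 2 it was -0.78 (edgeR unadjusted p = 0.0895). Only Chow+T 3, at 161 CPM, lay inside the MI range of TM7SF2.

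MSMO1 was at 296, 138, 551 and 792 CPM in the MII libraries, and 7 of the 8 MI libraries lay between 753 and 911 CPM. Its fitted log2 fold change was -1.16 (SE 0.635, interval -2.51 to 0.20). The others ran from -0.57 for SREBF2 (SE 0.312, interval -1.23 to 0.10) to -1.01 for DHCR7 (SE 0.820, interval -2.76 to 0.74). SREBF2 was at 415, 356, 576 and 412 CPM in the MII libraries, against 453 to 565 CPM in the MI libraries, so 3 MII libraries lay below all MI libraries and Chow+T 3 lay above them.

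Markers of several cell types also differed between the MII and the MI libraries. In the same fit, 9 of 11 granulosa markers were below 0 (median log2 fold change -0.34), while all 6 tested oocyte markers were above 0 (median 8.71), 5 of them at an edgeR unadjusted p under 0.05. Leukocyte (9 of 10, median 2.00), macrophage (11 of 11, 1.02) and erythroid markers (8 of 8, 2.03) were also above 0, and no marker passed the adjusted threshold. The granulosa score ranged from 6.22 to 7.38 (median 6.93) in the MII libraries and from 7.20 to 7.92 (median 7.34) in the MI libraries. Their summed level was 4198 to 12388 CPM in the MII libraries and 7703 to 13618 CPM in the MI libraries, with none of the 11 at 0 in all libraries. Leukocyte scores were 1.84 to 4.06 in the MII and -0.51 to 3.16 in the MI libraries. The summed level of 9 oocyte markers ran from 2.35 to 17.02 CPM (median 8.43) in the MII and from 2.24 to 18.7 CPM (median 2.87) in the MI libraries, and the part of oocyte RNA in the class difference was not tested. The granulosa score holds steroid synthesis genes, so it cannot tell the share of granulosa cells from their steroid synthesis. With the granulosa score in the fit, MII against MI gave fitted log2 fold changes of -0.75 for INSIG1, -0.85 for CYP51A1, -0.55 for TM7SF2 and -0.40 for MSMO1, and of -0.01 for EBP and -0.03 for NSDHL. Of these, INSIG1 had an unadjusted p of 0.040 by edgeR and CYP51A1 one of 0.0733. With the leukocyte score instead, INSIG1 had -1.005, CYP51A1 -1.16, TM7SF2 -0.66 and MSMO1 -0.82.

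The mevalonate and squalene genes had lower fitted values in MII against MI as well. All 10 tested genes had log2 fold changes below 0, with a median of -1.06, and 5 had an unadjusted p under 0.05 by edgeR, though none passed the adjusted threshold. MVK, the mevalonate kinase, had -1.28 (SE 0.450, edgeR unadjusted p = 0.0126), and LSS, which closes the sterol ring to lanosterol, had -1.05 (SE 0.398, edgeR unadjusted p = 0.0188). MVD, the decarboxylase, had -1.08 (SE 0.431, edgeR unadjusted p = 0.0247). The 5 late sterol genes outside the 9 were all below 0, with a median of -0.25, and so were 9 of the 11 SREBP machinery genes, with a median of -0.21. Of the 7 tested other SREBP2 targets 4 were below 0. Of the 7 LXR genes 4 were above 0, and MYLIP, a ubiquitin ligase gene, had 1.96 (SE 0.864, edgeR unadjusted p = 0.0385, adjusted p = 0.9995). All 10 tested genes of granulosa steroid synthesis had values below 0, with a median of -0.60 and none at an unadjusted p under 0.05. STAR, CYP11A1, HSD3B2, CYP19A1 and NR5A2 are also granulosa markers, so the counts of these lists are not separate observations.

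**Figure D3:**
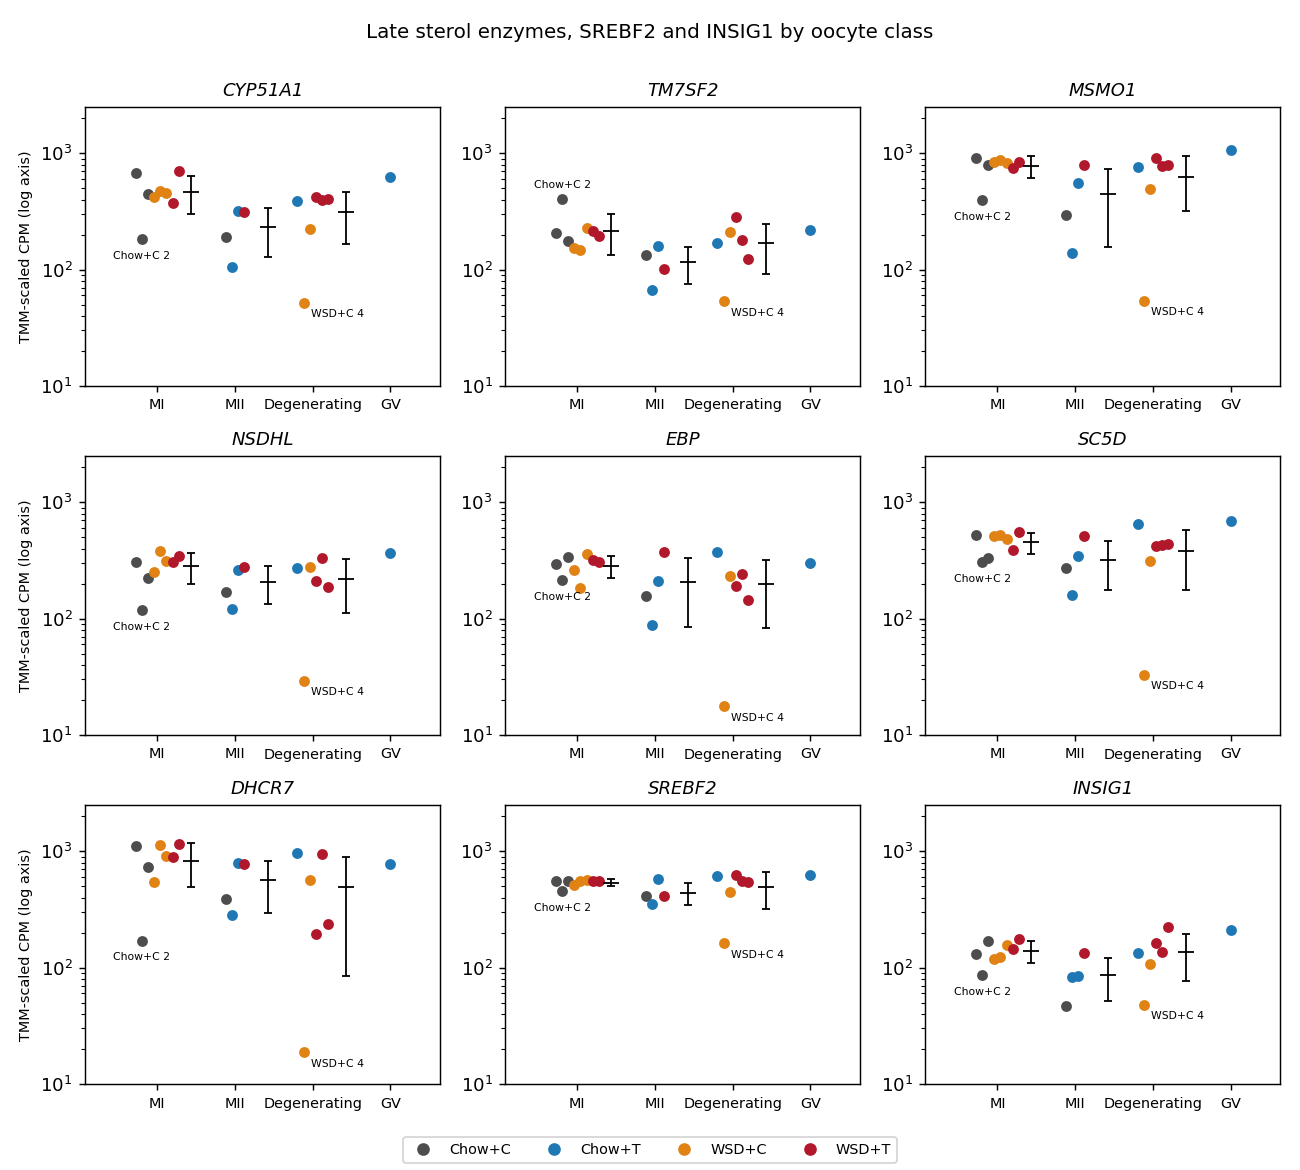
TMM-scaled CPM (log axis) of the 9 genes by oocyte class, coloured by treatment group, with the mean and SD of each class beside its points; the GV class holds 1 library. All MII libraries but 1 lie below every MI library for INSIG1 (WSD+T 1 excepted) and SREBF2 (Chow+T 3 excepted), and WSD+C 4 sets the lower end of the degenerating class.

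In degenerating against MI, the fitted log2 fold changes of all 9 genes were again below 0, from -0.26 (TM7SF2) to -1.19 (DHCR7), with a median of -0.63 against 0.02 over all tested genes. Without the treatment term the median was -0.35, and INSIG1 was at -0.04 rather than -0.42. CYP51A1 alone had an unadjusted p under 0.05, in a comparison where 4.45% of all tested genes were lower at that p. At the adjusted threshold edgeR called 0% of all genes, with 2136 at an unadjusted p under 0.05 in either direction, while DESeq2 called 801 genes and none of the 9. CYP51A1 ranged from 51.7 to 419 CPM, with a median of 390 CPM, in the 6 degenerating libraries, against a median of 451 CPM in the MI libraries. Its fitted log2 fold change was -0.97 (SE 0.447, interval -1.93 to -0.02, edgeR unadjusted p = 0.0458, adjusted p = 0.343).

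These values too rested largely on WSD+C 4, which had a degenerating oocyte. Without it, the fitted log2 fold change was -0.59 for CYP51A1 (edgeR unadjusted p = 0.128), -0.79 for DHCR7, -0.26 for MSMO1, -0.25 for NSDHL, -0.36 for EBP, -0.17 for SC5D, -0.16 for INSIG1 and -0.03 for SREBF2, and TM7SF2 was at 0.00. The degenerating class also held the leukocyte-rich libraries: its leukocyte scores ran from 0.859 to 7.66 (median 3.96), against -0.51 to 3.16 (median 1.53) in the MI libraries. Over 11 macrophage markers, with none at 0 in all libraries, the summed level ran from 16.6 to 2725 CPM in the degenerating libraries and from 10.4 to 23.6 CPM in the MI libraries. Over the 11 leukocyte markers it ran from 1263 to 3139 CPM in the degenerating and from 544 to 3195 CPM in the MI libraries, and RAC2 was at 0 in every library. With the leukocyte score in the fit, MSMO1 had -0.16, EBP -0.02, SREBF2 -0.03, CYP51A1 -0.63 and TM7SF2 0.18, and the part of leukocytes in the class difference was otherwise not tested.

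Of the 11 tested SREBP machinery genes, all had fitted log2 fold changes below 0 in degenerating against MI, with a median of -0.47, and 4 had an unadjusted p under 0.05 by edgeR, with none past the adjusted threshold. MBTPS2, a protease that releases SREBP, had -0.57 (SE 0.201, edgeR unadjusted p = 0.0125). ERLIN1, which encodes a lipid raft protein of the endoplasmic reticulum, had -0.50 (SE 0.201, edgeR unadjusted p = 0.0256). All 10 mevalonate and squalene genes were below 0, with a median of -0.52, and LSS, at -0.80 (SE 0.339, edgeR unadjusted p = 0.0319), had the smallest p. Of the 7 LXR genes 3 were above 0, and MYLIP had the smallest p of them, at 2.87 (SE 0.686, edgeR unadjusted p = 0.000825, adjusted p = 0.164). In the same fit 9 of 10 leukocyte markers (median log2 fold change 5.09) and 11 of 11 macrophage markers (4.96) were above 0, with none past the adjusted threshold. The part of WSD+C 4 and of leukocyte RNA in the values of these list genes was not tested.

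The single library with a GV oocyte, Chow+T 4, entered no oocyte comparison. It had the highest MSMO1 (1062 CPM), SC5D (698 CPM) and SREBF2 (629 CPM) of all 19 libraries, and the second highest INSIG1 (211 CPM) and NSDHL (364 CPM).

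The levels of the 9 genes varied together across libraries. Of the 36 pairs of genes, all had a positive Pearson correlation of log2 CPM over the 19 libraries, from 0.424 to 0.957 with a median of 0.817. Over all pairs of the 15019 tested genes the median r was -0.003, and 13.3% of the pairs reached the lowest r of the 9 genes and 0.458% their median. By permutation tests adjusted over the 36 pairs, 34 passed by Pearson's r and 21 by Spearman's rho, whose median was 0.554. With group means subtracted, 35 passed. Leaving out the 2 libraries farthest from the median of the first gene of each pair, 18 passed, with a median r of 0.516. Leaving out WSD+C 4 and WSD+T 6 instead, 27 passed, with a median r of 0.652, which 2.87% of all gene pairs reached in those 17 libraries.

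CYP51A1 and MSMO1 were the closest pair, with r = 0.957 and rho = 0.923 (adjusted permutation p = 6e-05 and 0.00036, n = 19; the raw p of r, 1e-05, is the smallest that 100000 permutations can give). Without WSD+C 4 and Chow+T 2 r was 0.883. MSMO1 and SC5D had r = 0.951 and rho = 0.800 (adjusted permutation p = 6e-05 and 0.0009), and r = 0.802 without the same 2 libraries. MSMO1 and INSIG1 had r = 0.809 and rho = 0.675 (adjusted permutation p = 0.000411 and 0.00852), and r = 0.865 without them. SREBF2 and INSIG1 had r = 0.724 and rho = 0.621 (adjusted permutation p = 0.00099 and 0.0178), and r = 0.619 without them. These relations thus did not rest on the 2 most extreme libraries.

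TM7SF2 was the least tied to the others. Its correlations with the other 8 genes ran from 0.424 (DHCR7) to 0.711 (SREBF2). Without WSD+C 4 and Chow+T 2 they ran from -0.33 (DHCR7) to 0.24 (SREBF2), so the size of these correlations rested on those 2 libraries. Chow+C 2, with the highest TM7SF2 but low CYP51A1, MSMO1, NSDHL and DHCR7, stayed in, and its part in these low values was not tested. With SREBF2, rho over all 19 libraries was 0.611 (adjusted permutation p = 0.0178), and without WSD+C 4 and WSD+T 6 r was 0.544 (adjusted permutation p = 0.0331). The ratio of TM7SF2 to CYP51A1 CPM was 2.22 in Chow+C 2 and at most 1.03 in the other libraries, with a median of 0.452. This ratio compares libraries only, since gene lengths were not divided out.

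DHCR7 was tied most closely to NSDHL, with r = 0.950 and rho = 0.849 (adjusted permutation p = 0.00012 and 0.00054, n = 19), and r = 0.808 without WSD+C 4 and Chow+C 2. With SREBF2 its r was 0.801 and rho 0.433 (adjusted permutation p = 0.00505 and 0.0922), and r was 0.313 without those 2 libraries. With INSIG1 r was 0.534 and rho 0.305 (adjusted permutation p = 0.0251 and 0.214), and r was 0.130 without them. The relations of DHCR7 with both control genes rested on those libraries.

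**Figure D4:**
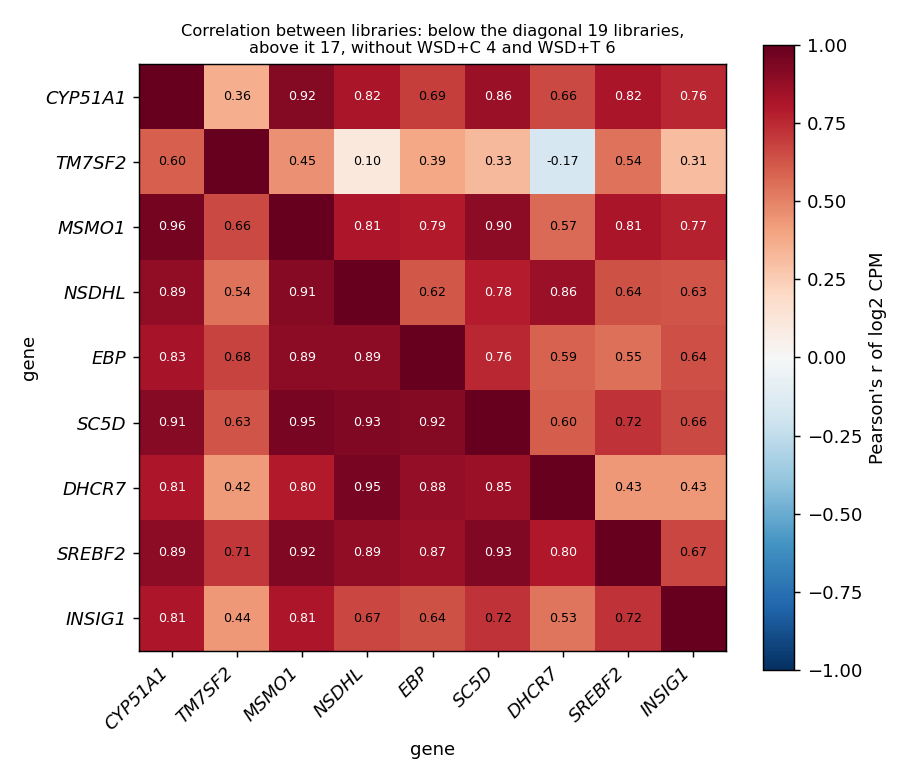
Pearson's r of log2 CPM between the 9 genes, with all 19 libraries below the diagonal and with the 17 libraries other than WSD+C 4 and WSD+T 6 above it. CYP51A1, MSMO1 and SC5D keep high values on both sides, and the row and column of TM7SF2 are pale above the diagonal.

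DHCR7 was low for the level of MSMO1 in a few libraries. The ratio of DHCR7 to MSMO1 CPM was 0.213 in WSD+T 3, 0.300 in WSD+T 6, 0.349 in WSD+C 4 and 0.433 in Chow+C 2, where the median library had 1.16 and the highest, Chow+T 2, had 2.04. In WSD+T 3 MSMO1 was at 907 CPM, the highest of its group, while DHCR7 was at 193 CPM, the lowest of its group. The ratio of NSDHL to MSMO1 was also lowest in WSD+T 3 (0.232) and WSD+T 6 (0.236), with a median of 0.379, but it was 0.544 in WSD+C 4. The ratio of EBP to MSMO1 was lowest in WSD+T 6 (0.184) and also low in WSD+T 3 (0.210), with a median of 0.381, but it was 0.540 in Chow+C 2. The leukocyte scores of the 4 libraries with the lowest DHCR7 to MSMO1 ratio were 4.78, 7.66, 6.83 and 1.04, so Chow+C 2 had a low score and the others had the 3 highest of the series. Chow+T 2 had the next highest score, 4.06, and yet the highest DHCR7 to MSMO1 ratio. The part of leukocyte RNA in these ratios was not tested.

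**Figure D5:**
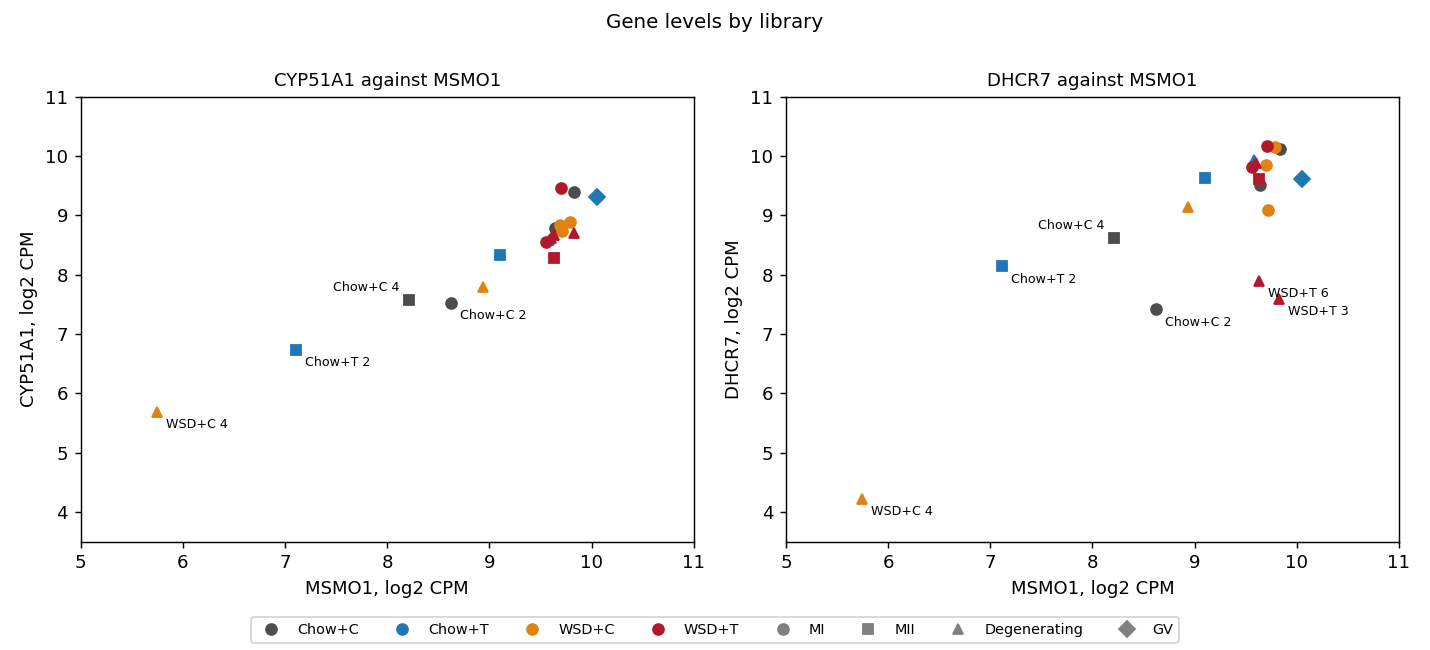
Log2 CPM of CYP51A1 (left) and DHCR7 (right) against MSMO1 in the 19 libraries, with colour for the treatment group and shape for the oocyte class. CYP51A1 and MSMO1 lie near a line (r = 0.957), and DHCR7 lies low for its MSMO1 level in WSD+T 3, WSD+T 6, Chow+C 2 and WSD+C 4.

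The ratio of INSIG1 to SREBF2 CPM was lowest in Chow+C 4 (0.112) and Chow+T 3 (0.146), which both had MII oocytes, and in Chow+C 2 (0.191). It was highest in WSD+T 6 (0.410) and Chow+T 4 (0.335), with a median of 0.242. Of the other 2 MII libraries, Chow+T 2 (0.234) lay near the median and WSD+T 1 (0.322) had the third highest ratio.

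Cell markers varied with the 9 genes over the 19 libraries. Of 27 relations between the 9 genes and the granulosa, leukocyte and erythroid scores, 17 passed by Pearson's r with permutation p adjusted over the 27, 2 passed by Spearman's rho, and 25 passed with group means subtracted. None passed without the 2 libraries farthest from the median score, one of which was WSD+C 4 for each score, and 2 passed without WSD+C 4 and WSD+T 6. In those 17 libraries the correlation with the granulosa score was 0.629 for CYP51A1, 0.652 for TM7SF2, 0.712 for MSMO1 and 0.723 for SREBF2, and 0.0705 for DHCR7. Correlations with the granulosa score ran from 0.590 (INSIG1) to 0.868 (SREBF2). TM7SF2 and SREBF2 were the 2 genes that passed by rho as well, with 0.707 and 0.642 (adjusted permutation p = 0.0232 and 0.046, n = 19), and their r was 0.458 and 0.496 without WSD+C 4 and Chow+T 2. DHCR7 had the most negative correlation with the leukocyte score, at r = -0.64 and rho = -0.42 (adjusted permutation p = 0.021 and 0.324, n = 19), and r = -0.32 without WSD+T 6 and WSD+C 4. INSIG1 had an r of -0.10 with that score. SRGN, a marker in the leukocyte score, was itself among the 20 genes of highest correlation with DHCR7 over the 19 libraries. It was also among the 20 of NSDHL, and among neither without WSD+C 4.

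Among all tested genes with a symbol, those whose log2 CPM was most like each of the 9 were named by Pearson's r over the 19 libraries, as a description without a test. The genes nearest MSMO1 were IDI1 (0.987), FDFT1 (0.984) and SQLE (0.982), which encode an isomerase and a pair of squalene enzymes of the same pathway, and they kept 0.970, 0.967 and 0.973 without WSD+C 4. Those nearest CYP51A1 were SQLE (0.960), MSMO1 (0.957) and AACS (0.945). Near INSIG1 lay SQLE (0.832) and AACS (0.830). Of the 20 genes nearest MSMO1, 4 were among the other 8 genes and 7 more were in the gene lists of the pathway and its cells, and for INSIG1 these counts were 2 and 7. Without WSD+C 4 the counts for INSIG1 were 1 and 6, and its nearest genes were TDP2 (0.822), HABP4 (0.798) and OPA3 (0.784).

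SREBF2 itself lay nearest FDPS (0.951), IL6ST (0.945) and HMGCS1 (0.942), with 2 of the 9 and 7 list genes among its 20 nearest. Without WSD+C 4 its nearest were SUSD3 (0.859), AGFG1 (0.851) and NEXN (0.838), and FDPS had 0.796. Its 20 nearest then held 2 of the 9 and 9 list genes. Those nearest SC5D were FDPS (0.951), MSMO1 (0.951) and HIF1A (0.946), with 4 of the 9 and 3 list genes among the 20. The 3 genes nearest DHCR7 came from outside the pathway: RBM47 (0.980), PAPPA (0.977), which encodes a protease of IGF-binding proteins, and IBTK (0.974). Its 20 nearest held 1 of the 9, NSDHL, and 2 list genes, and none of either without WSD+C 4. NSDHL lay nearest CLPTM1 (0.960), HSD17B12 (0.959) and CREB3 (0.957), and EBP nearest HIF1A (0.957), ITGA7 (0.944) and ITIH1 (0.940). The 20 nearest NSDHL held 1 of the 9 and 1 list gene, and the 20 nearest EBP held 1 and 2. Without WSD+C 4 the pathway gene LSS (0.871) was among the 3 nearest EBP. TM7SF2 lay nearest TSTA3 (0.847), THAP7 (0.846) and DCTN5 (0.8289), and its 20 nearest held 2 list genes and none of the other 8 genes. These correlations share the libraries and their scaling, and WSD+C 4 weighs on all of them.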

How the data were processed

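RNA of 19 libraries was measured by polyA-selected, non-directional sequencing (Promega ReliaPrep and TruSeq v2 kits), per the labels' protocols. The submitters' processing notes name Trimmomatic (a read trimmer) and STAR (an aligner). No source used here gives their versions, the counting tool, the genome build or the annotation, so no coordinates are printed. The authors deposited 1 table of raw counts per gene, and 4 further entries that name no gene (30.9% to 50.9% of a library) were left out.

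Counts were tested in R 4.3.3 with edgeR 4.0.16: filterByExpr (minimum count 10, minimum total 15), TMM scaling and robust quasi-likelihood tests, two-sided, with Benjamini-Hochberg adjustment over all genes tested and a threshold of 0.05. One fit of the 4 groups (19 libraries, 15019 genes) gave the treatment comparisons. A second fit of 18 libraries (14976 genes), with treatment group as a term, compared oocyte classes. The common dispersion was 0.340. Log2 CPM used a prior count of 1, and correlations used 100000 permutations (20000 with libraries left out). The treatment fit was tested on simulated data drawn with less spread than these libraries have. Intervals of fold changes are for the fitted difference between groups, given the spread between these libraries, and do not cover that spread itself. Their SE was computed from the fitted fold change and the F statistic of the edgeR test.

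The 9 genes, the gene lists and the marker lists were chosen with earlier results of these data known. Named beside the 9 are, per list and comparison, at most 3 genes with the smallest p where none passed, and the 3 genes of highest correlation with each of the 9. Symbols came from the file (21539 genes) or a name table (1383 more); 8 list symbols were not matched. Alternatives were DESeq2 1.42.0, its size factors in edgeR, no filter, a leukocyte or granulosa score as a covariate, each library left out, WSD+C 4 and WSD+T 6 left out together, MI and MII libraries alone, and no treatment term. Values of some list genes are not reported here.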

Additional observations from a re-analysis of the deposited data

Results flagged for a closer look

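The level of each of the 9 genes was checked within the 4 treatment groups and the 3 oocyte classes for a single library far from the others by Dixon's gap criterion. Of 63 gene and group combinations 21 had one, where chance gives about 1 in 20, and the 9 genes and the groups are not independent of each other. In log2 CPM, WSD+C 4 was far below the rest of WSD+C for MSMO1 (5.75), NSDHL (4.87), EBP (4.14), SC5D (5.05), DHCR7 (4.23) and SREBF2 (7.33). The same library and values were far below the other degenerating libraries for MSMO1, NSDHL, EBP, SC5D and SREBF2, and there also for CYP51A1 (5.69).

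Chow+C 2 was far below the other MI libraries for CYP51A1 (7.52), MSMO1 (8.63), NSDHL (6.89), DHCR7 (7.42) and SREBF2 (8.82), and far above them for TM7SF2 (8.67). WSD+T 5 was far above the rest of WSD+T for CYP51A1 (9.47). SREBF2 was far below its group in Chow+T 2 (8.48) and in WSD+T 1 (8.69), which both had MII oocytes.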

How the results depend on the processing

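None of the 9 genes was called in any comparison under any alternative run. Over 1836 alternative fold changes of the 9 genes the smallest adjusted p was 0.178 (CYP51A1, degenerating against MI); 125 changed sign, none of them with an unadjusted p under 0.05 in either fit. In MII against MI all 225 kept their sign, and in degenerating against MI 4 of 225 changed, all of TM7SF2. DESeq2 called 5 genes (testosterone on chow), 3 (both against control), 4 (diet under testosterone), 3 (interaction), 801 (degenerating against MI) and 6 (MII against MI) where edgeR called 0. With MI and MII libraries alone edgeR called 4 genes for testosterone on chow. For degenerating against MI it called 574 without the treatment term, and 0 to 226 with 1 library left out, 226 without Chow+T replicate 1; the cause was not tested. Of the pairs of the 9 genes 18 passed without the 2 farthest libraries against 34 with all; of the relations with cell scores 0 then passed, and 2 without both WSD+C 4 and WSD+T 6, against 17. No paired analysis was possible because the labels hold no replicate numbers and those used follow the accessions, so that they link no animals between groups. The groups hold 4 to 6 libraries with a biological coefficient of variation of 0.583, and the intervals of the fold changes are wide. The effect of read depth was not tested.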
